A study of Mus musculus with 12 samples.

Results

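Macrophages taken from the calf muscle of mice 4 days after hind-limb ischemia were compared with those taken 1 day after it, across all genes of the deposited count table. The comparison used 6 of the 12 libraries of the series, 3 at 4 days post injury (dpi) and 3 at 1 dpi, chosen by the day in their labels, and 14310 of 55414 gene IDs had enough counts to be tested. Animals were C57BL6J wild type males of 8 to 12 weeks whose femoral artery had been ligated and excised. For its flow cytometry the paper labelled circulating CD45+ cells through the vein shortly before death. Whether the mice of these libraries were labelled so was not given in the sources used here. Every group was ischemic, and no library of uninjured or sham-operated muscle was analysed here. The cells were described as CD45+ CD11b+ F4/80+ CD64+ macrophages of the digested muscle, a gate on tissue CD45 that takes in circulating as well as infiltrated cells, and RNA was made into full-length cDNA from an oligo-dT primer (Smart-seq2/3), which does not mark strand. The other 6 libraries, from 2 and 7 dpi, entered the estimate of gene-wise spread and are given below as levels only. Whether a library came from 1 mouse or several pooled mice was not given in the sources used here, so every p-value here rests on the variation among these libraries, part of which may be technical.

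After a muscle injury, monocytes enter from the blood within the first day and become macrophages that secrete inflammatory cytokines, chemokines and proteases and clear dead fibres. The same population later lowers these products, takes on a resolving state marked by lysosomal, lipid-handling and antigen-presenting genes, secretes growth factors for muscle stem cells, and can divide in place. In sorted bulk samples, a change in how many cells carry a transcript and a change in transcript per cell cannot be told apart.

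Total counts ran from 25336823 to 32243176 at 4 dpi and from 19528316 to 33599472 at 1 dpi. A single unnamed gene, ENSMUSG00000119584, held 45.0% to 49.7% of counts at 4 dpi and 52.9% to 55.7% at 1 dpi. Of 12 defining macrophage markers none was at 0 in all libraries. Of them 2 were upregulated (16.7%, beside 14.7% of all genes) and 2 downregulated (16.7%, beside 8.48%) at 4 dpi. Cd68, a lysosomal glycoprotein of macrophages, had 1004, 909 and 986 CPM at 4 dpi, against 782, 758 and 738 CPM at 1 dpi. The pan-leukocyte gene Ptprc (CD45) was not called (log2FC 0.38 ± 0.18 (SE), adjusted p = 0.11). Of the other sort markers, Itgam, which encodes CD11b, had 48.3, 40.4 and 40.3 CPM at 4 dpi, against 182, 191 and 169 CPM at 1 dpi (log2FC -2.07 ± 0.18 (SE), adjusted p = 7.5e-07), and was lower at 4 dpi without overlap. Adgre1, which encodes F4/80, had 514, 779 and 630.3 CPM at 4 dpi, against 292, 316 and 245 CPM at 1 dpi and was higher (log2FC 1.17 ± 0.20 (SE), adjusted p = 0.00029). Fcgr1, which encodes CD64, was below the 2-fold limit (log2FC -0.90 ± 0.21 (SE), adjusted p = 0.0033), and past it at a log2FC of -1.02 without 4 dpi replicate 1. On the first principal component of all 12 libraries, which held 47.5% of the variance, the 4 dpi libraries lay at 12.4, 55.5 and 52.0 and the 1 dpi libraries at -101, -77.6 and -77.2. Replicate 1 of 4 dpi was the one nearest to 1 dpi on that axis, and in 1172 of 2103 upregulated genes (55.7%) and 786 of 1213 downregulated genes (64.8%) it was the 4 dpi library closest to the 1 dpi level.

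Genes were called at a Benjamini-Hochberg adjusted p below 0.05 in the edgeR quasi-likelihood test with a log2 fold change (log2FC, 4 dpi minus 1 dpi) beyond 1, that is 2-fold. By this rule 2103 genes were upregulated at 4 dpi, 14.7% of the genes tested, and 1213 were downregulated, 8.48%. Counts of called members in each list below are to be set beside these shares. The median log2FC of all 14310 genes was 0.02. Upregulated genes had a median log2FC of 2.03, with 1072 over 4-fold, 325 over 16-fold and 160 over 64-fold, and downregulated genes had a median of -1.59, with 434 over 4-fold, 114 over 16-fold and 27 over 64-fold. Among upregulated genes 150 had no count in any 1 dpi library, and among downregulated genes 17 had none in any 4 dpi library. The fitted log2FC of such a gene depends on the prior count, so for these a lower bound is given against a floor of 3 counts over the 3 libraries of the day. The floor takes each count as a separate fragment, and the bounds would be lower if both reads of a pair were counted. All 3 libraries of 4 dpi lay above all 3 of 1 dpi in 3711 genes (25.9%) and below them in 3304 genes (23.1%), which includes 2036 of the upregulated and 1166 of the downregulated genes.

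**Figure D1:**
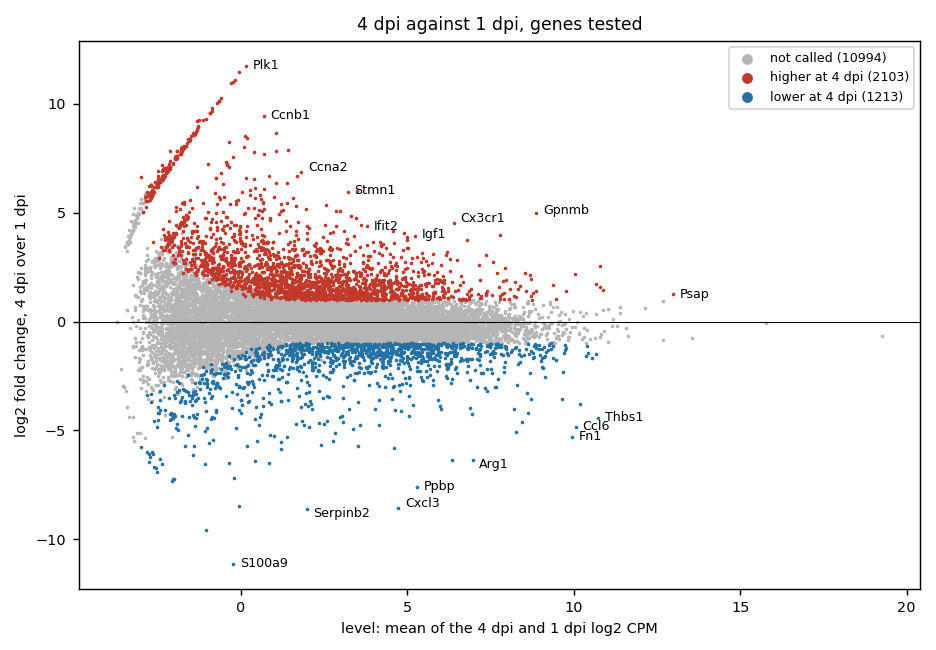
Log2FC (4 dpi minus 1 dpi) of each of 14310 genes against its mean log2 CPM over both days, with 2103 upregulated genes in red, 1213 downregulated genes in blue and 10994 others in grey. Upregulated genes reach further from 0 than downregulated ones, and fitted values of genes with no count on a day depend on the prior count.

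Inflammatory cytokines were mostly lower at 4 dpi. Of 20 tested, 12 were downregulated and 3 upregulated, with a median log2FC of -2.29 beside 0.02 over all genes. Il1b, the inflammasome-processed fever cytokine, had 123, 126.9 and 123 CPM at 4 dpi, against 1767, 1619 and 950.0 CPM at 1 dpi (log2FC -3.54 ± 0.32 (SE), adjusted p = 8.5e-07). Tnf, which signals through the TNF receptors, had 106, 68.9 and 87.2 CPM at 4 dpi, against 771, 390.1 and 479 CPM at 1 dpi (log2FC -2.64 ± 0.37 (SE), adjusted p = 4.5e-05). In both genes the days did not overlap. Osm, a gp130 cytokine of activated myeloid cells, had 52.1, 77.9 and 79 CPM at 4 dpi, against 498, 550.2 and 649 CPM at 1 dpi (log2FC -3.02 ± 0.21 (SE), adjusted p = 1.2e-07). Lif, of the same family, had 0.423, 0 and 0.527 CPM at 4 dpi, against 14.2, 21.4 and 21.6 CPM at 1 dpi (log2FC -5.85 ± 0.61 (SE), adjusted p = 3.2e-06). Il6 (log2FC -3.27 ± 0.45 (SE), adjusted p = 4.1e-05) and Csf1 (log2FC -2.31 ± 0.24 (SE), adjusted p = 3.1e-06), the growth factor that keeps macrophages alive, were also downregulated. The 3 upregulated members (15%, beside 14.7% of all genes) were Il15, Il12b and Cd40. Il15, which sustains lymphocytes and acts on muscle, had 8.41, 10.0 and 9.57 CPM at 4 dpi, against 5.5, 2.79 and 2.12 CPM at 1 dpi (log2FC 1.46 ± 0.41 (SE), adjusted p = 0.011), and was not called without 1 dpi replicate 3 (log2FC 1.23, adjusted p = 0.052). Cd40, the receptor for T-cell CD40 ligand, had 14.3, 16.2 and 16.9 CPM at 4 dpi, against 5.82, 8.54 and 7.29 CPM at 1 dpi (log2FC 1.12 ± 0.21 (SE), adjusted p = 0.00069). Il12b had no count at 1 dpi and was at least 6.5-fold higher. Ifnb1 was too low to be tested.

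The list of chemokines that draw neutrophils had 6 of 6 downregulated, with a median log2FC of -4.37. It includes Pf4, which is also among the tissue-resident macrophage markers used here. Cxcl2 had 341, 177 and 209 CPM at 4 dpi, against 3678, 2548 and 2294 CPM at 1 dpi (log2FC -3.55 ± 0.36 (SE), adjusted p = 2.7e-06). Cxcl3 had 2.9, 0.444 and 1.14 CPM at 4 dpi, against 914, 405 and 482 CPM at 1 dpi (log2FC -8.58 ± 0.57 (SE), adjusted p = 9.6e-08), the second largest fall among the genes named by size. Cxcl1 was lower by a log2FC of -2.82 ± 0.40. These 3 are close paralogs that share the receptor CXCR2. Ppbp and Pf4, chemokines stored in platelets, fell with them, at 16.5, 0.444 and 0.351 CPM at 4 dpi, against 2058, 762 and 628 CPM at 1 dpi for Ppbp (log2FC -7.59 ± 1.04 (SE), adjusted p = 3.7e-05). Pf4 had 253, 163 and 138 CPM at 4 dpi, against 946, 585 and 453 CPM at 1 dpi (log2FC -1.84 ± 0.28 (SE), adjusted p = 0.00011), without overlap. The list of erythroid and platelet markers holds Ppbp but not Pf4, and 5 of its 10 members were tested. Without Ppbp it summed to 4.93, 1.78 and 7.55 CPM at 4 dpi and 6.20, 7.06 and 1.48 CPM at 1 dpi, which overlap. The neutrophil markers spanned 88.3 to 168 CPM at 4 dpi and 233 to 401 CPM at 1 dpi, and their part in the chemokine result was not tested. These 6 genes lie together on mouse chromosome 5, where Cxcl5, Ppbp, Pf4, Cxcl3, Cxcl1, Cxcl2, Mthfd2l, Ereg and Areg, next to each other in the GRCm38 annotation, were all downregulated. Because their starts carry the site of NF-kappaB, the factor that inflammatory signals send to the nucleus, the promoters of Cxcl1 and Cxcl2 are shown as RefSeq gives them for GRCm38.p6, from 250 bases before to 50 after the gene start, 5′ to 3′. Capitals mark the NF-kappaB match, which both strands were searched for and which overlaps its own match on the other strand.
Cxcl1 (chr5:90890995-90891294, plus strand): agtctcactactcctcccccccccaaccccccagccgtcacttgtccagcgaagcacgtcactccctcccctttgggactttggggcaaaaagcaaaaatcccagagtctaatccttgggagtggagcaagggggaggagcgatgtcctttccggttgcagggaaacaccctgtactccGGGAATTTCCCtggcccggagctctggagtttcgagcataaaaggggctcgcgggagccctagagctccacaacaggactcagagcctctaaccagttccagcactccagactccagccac
Cxcl2 (chr5:90903649-90903948, plus strand): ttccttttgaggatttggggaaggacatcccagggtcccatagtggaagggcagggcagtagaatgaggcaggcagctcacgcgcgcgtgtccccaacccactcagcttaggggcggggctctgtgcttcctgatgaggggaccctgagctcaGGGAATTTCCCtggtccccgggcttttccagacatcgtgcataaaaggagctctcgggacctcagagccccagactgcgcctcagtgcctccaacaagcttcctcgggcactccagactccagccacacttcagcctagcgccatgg
Windows were printed because they held a match. An NF-kappaB match stood in 6.20% of the 10035 tested genes with a window, in 3 of the 5 neutrophil-attracting chemokines with one, and in 7.38% of downregulated and 6.21% of upregulated genes.

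Monocyte-attracting chemokines fell as a group, with 8 of 9 downregulated and a median log2FC of -3.81. Ccl2, the main ligand of CCR2, had 175, 23.5 and 52.1 CPM at 4 dpi, against 1705, 1755 and 2589 CPM at 1 dpi (log2FC -4.59 ± 0.53 (SE), adjusted p = 7.6e-06). Ccl7, which uses the same receptor, had 272, 22.8 and 61.5 CPM at 4 dpi, against 2179, 1924 and 2444 CPM at 1 dpi (log2FC -4.20 ± 0.61 (SE), adjusted p = 6.1e-05). Ccl6 and Ccl9, abundant in mouse myeloid cells, were lower by log2FC -4.83 ± 0.35 and -3.81 ± 0.30. They lie in a chromosome 11 stretch with Ccl3, Ccl4 and Wfdc17 in which 6 neighbouring genes were downregulated. Without 1 dpi replicate 1, 1 chemokine of this group became upregulated. Chemokines for lymphocytes were split, with 3 of 8 upregulated and 2 downregulated, and 1 downregulated without 1 dpi replicate 2. Cxcl9, an interferon-gamma product that binds CXCR3, had 3.27, 4 and 8.08 CPM at 4 dpi, against 0.314, 0.0821 and 0 CPM at 1 dpi (log2FC 5.51 ± 0.90 (SE), adjusted p = 0.00019). Cxcl10 (log2FC 1.63 ± 0.34 (SE), adjusted p = 0.0015) and Cxcl16 (log2FC 2.88 ± 0.22 (SE), adjusted p = 1.9e-07) were also higher, whereas Ccl22 (log2FC -3.01 ± 1.03 (SE), adjusted p = 0.032) and Cxcl14 (log2FC -1.25 ± 0.32 (SE), adjusted p = 0.0058) were lower. Ccl22 lost its call without 4 dpi replicate 1, 4 dpi replicate 2 or 1 dpi replicate 1 (log2FC -2.37, -2.81 and -1.88 in that order), and Cxcl14 without 1 dpi replicate 2 (-0.93).

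Receptors for chemoattractants followed, with 9 of 19 downregulated and 2 upregulated (median log2FC -1.40). Fpr1, which senses bacterial and mitochondrial formyl peptides, had 2.48, 0.533 and 0.878 CPM at 4 dpi, against 73.6, 47.1 and 22.9 CPM at 1 dpi (log2FC -5.14 ± 0.55 (SE), adjusted p = 3.8e-06). Fpr2, its neighbour on chromosome 17, had 2.6, 1.51 and 1.58 CPM at 4 dpi, against 29, 22.5 and 12.8 CPM at 1 dpi (log2FC -3.48 ± 0.40 (SE), adjusted p = 7.6e-06). Ltb4r1, the leukotriene B4 receptor, had 8.29, 1.24 and 1.84 CPM at 4 dpi, against 287, 201 and 172 CPM at 1 dpi (log2FC -5.81 ± 0.66 (SE), adjusted p = 6e-06). All 3 are also expressed by neutrophils, whose marker sums are given above and single markers below. Ccr1 was lower too (log2FC -3.17 ± 0.40). In the other direction Cx3cr1, the fractalkine receptor of resident-type macrophages, had 307, 538 and 465 CPM at 4 dpi, against 8.49, 29.5 and 17.8 CPM at 1 dpi (log2FC 4.54 ± 0.41 (SE), adjusted p = 8.2e-07), with no overlap. Cxcr3 was the other upregulated receptor (log2FC 3.87 ± 0.46 (SE), adjusted p = 1.1e-05).

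Of 25 Toll-like receptors and adaptors, 4 were downregulated and 7 upregulated. Cd14, the lipopolysaccharide co-receptor, had 280.4, 480.1 and 355 CPM at 4 dpi, against 1997, 2089 and 1542 CPM at 1 dpi (log2FC -2.33 ± 0.26 (SE), adjusted p = 5.8e-06), and the surface receptors Tlr2 (log2FC -1.29 ± 0.24 (SE), adjusted p = 0.00053), Tlr4 (log2FC -1.06 ± 0.20 (SE), adjusted p = 0.00076) and Tlr5 (log2FC -1.87 ± 0.40 (SE), adjusted p = 0.0018) were downregulated, Tlr4 not without 1 dpi replicate 1 (log2FC -0.73). The upregulated members were the nucleic acid sensors Tlr3, Tlr7, Tlr8 and Tlr9, Tlr12, the transport chaperone Unc93b1 and the co-receptor Ly86. Tlr9, which binds endosomal DNA, had 88.2, 122 and 148 CPM at 4 dpi, against 26.2, 28.4 and 26 CPM at 1 dpi (log2FC 2.15 ± 0.20 (SE), adjusted p = 1.2e-06). Tlr8 (log2FC 2.09 ± 0.25 (SE), adjusted p = 1e-05) and Unc93b1 (log2FC 1.49 ± 0.22 (SE), adjusted p = 8.4e-05) were higher as well. Tlr12 had no count at 1 dpi and was at least 244-fold higher. Of 16 C-type lectin receptors, 6 were downregulated and 2 upregulated. Clec4e (Mincle), a receptor for glycolipids and dead cells, had 20.5, 10.6 and 18.1 CPM at 4 dpi, against 281, 229 and 285 CPM at 1 dpi (log2FC -4.01 ± 0.33 (SE), adjusted p = 3.8e-07), and its neighbours Clec4d and Clec4n were lower by log2FC -2.55 ± 0.32 and -1.55 ± 0.27. The 2 upregulated lectins, Clec12a (log2FC 1.92 ± 0.29 (SE), adjusted p = 8.2e-05) and Clec9a (log2FC 2.82 ± 1.00 (SE), adjusted p = 0.038), became 1 when any of 5 libraries was left out, the exception being 1 dpi replicate 1.

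The NF-kappaB list had 6 of 18 downregulated and 0 upregulated (median log2FC -0.73), and 4 of the 6 encode inhibitors or modulators of the IkappaB family. Nfkbia, which holds NF-kappaB in the cytoplasm, had 890.2, 929 and 735 CPM at 4 dpi, against 3232, 2644 and 2225 CPM at 1 dpi (log2FC -1.67 ± 0.27 (SE), adjusted p = 0.00017). Nfkbie (log2FC -1.59 ± 0.21 (SE), adjusted p = 2.1e-05) and Nfkbiz (log2FC -1.47 ± 0.29 (SE), adjusted p = 0.0011) were lower as well. So were the kinase genes Ikbke (log2FC -1.48 ± 0.23 (SE), adjusted p = 0.00014) and Chuk (log2FC -1.12 ± 0.19 (SE), adjusted p = 0.00028). Of AP-1 and immediate-early factors, 10 of 26 were downregulated, with Ier3 at 191, 287 and 233 CPM at 4 dpi, against 1850.4, 1199 and 1120.4 CPM at 1 dpi (log2FC -2.55 ± 0.27 (SE), adjusted p = 3.9e-06) and Maff at 9.01, 5.02 and 9.04 CPM at 4 dpi, against 51.6, 31.6 and 27.9 CPM at 1 dpi (log2FC -2.26 ± 0.31 (SE), adjusted p = 4.1e-05). Fos (log2FC 0.35 ± 0.28, adjusted p = 0.34) and Junb (log2FC -0.75 ± 0.22, adjusted p = 0.015) were not called. Batf3 was upregulated (log2FC 1.34 ± 0.44 (SE), adjusted p = 0.026), a count of 1 that became 2 with 4 dpi replicate 1 left out and 0 with 4 dpi replicate 2 or with replicate 3 of either day left out.

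Inflammatory enzymes and effectors had 6 of 23 downregulated (26.1%, beside 8.48% of all genes) and 3 upregulated (13%, beside 14.7%). Ptgs2 (COX-2), which makes prostaglandins on demand, had 81.6, 56.9 and 81.6 CPM at 4 dpi, against 1406, 1131 and 1022 CPM at 1 dpi (log2FC -4.01 ± 0.30 (SE), adjusted p = 1.5e-07). Acod1, which makes the antimicrobial itaconate, had 2.48, 1.07 and 2.06 CPM at 4 dpi, against 81.5, 45 and 49.3 CPM at 1 dpi (log2FC -4.95 ± 0.34 (SE), adjusted p = 1.1e-07). The inflammasome sensor Nlrp3 (log2FC -3.06 ± 0.36 (SE), adjusted p = 9.6e-06) was downregulated too, and so was Saa3, a serum amyloid A protein (log2FC -6.49 ± 0.60 (SE), adjusted p = 9.2e-07). In the same list Hpgds, the prostaglandin D synthase, had 38.7, 70.1 and 61.8 CPM at 4 dpi, against 2.51, 2.63 and 2.68 CPM at 1 dpi (log2FC 4.44 ± 0.26 (SE), adjusted p = 2.6e-08), and Cybb, the catalytic subunit of the phagocyte oxidase, had 435, 1183 and 926 CPM at 4 dpi, against 126, 171 and 252 CPM at 1 dpi (log2FC 2.21 ± 0.32 (SE), adjusted p = 5.6e-05).

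The plasminogen and matrix-protease list had 11 of 26 downregulated and 5 upregulated. Serpinb2, which inhibits plasminogen activators, had 0.484, 0.0888 and 0 CPM at 4 dpi, against 139, 59.1 and 64.7 CPM at 1 dpi (log2FC -8.60 ± 0.65 (SE), adjusted p = 1.5e-07), the largest fall among the genes named by size. Thbs1, a matrix glycoprotein of activated monocytes and platelets, had 396, 293 and 461 CPM at 4 dpi, against 12128, 7249.8 and 5229.7 CPM at 1 dpi (log2FC -4.42 ± 0.33 (SE), adjusted p = 1.5e-07). Mmp19 fell as well (log2FC -3.59 ± 0.24 (SE), adjusted p = 9.6e-08), as did F10, coagulation factor X (log2FC -4.09 ± 0.39 (SE), adjusted p = 1.4e-06). The members upregulated include Timp2 (log2FC 3.05 ± 0.28 (SE), adjusted p = 9.2e-07), an inhibitor of metalloproteinases, and Mmp2, with 7.02, 9.41 and 8.91 CPM at 4 dpi, against 0.943, 5.05 and 1.85 CPM at 1 dpi (log2FC 1.63 ± 0.40 (SE), adjusted p = 0.0049). Mmp2 is made chiefly by fibroblasts, and the summed fibroblast markers spanned 253 to 479 CPM at 4 dpi and 56.7 to 112 CPM at 1 dpi. The part of those cells in these values was not tested.

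Monocyte markers fell broadly. Of 18, 15 were downregulated and 0 upregulated, with a median log2FC of -2.72. Fn1, fibronectin, had 302, 84.9 and 127.4 CPM at 4 dpi, against 4974, 7228 and 7865 CPM at 1 dpi (log2FC -5.29 ± 0.45 (SE), adjusted p = 4.7e-07). Vcan, a proteoglycan of monocytes, had 27.3, 1.78 and 5.88 CPM at 4 dpi, against 1135, 1001 and 791 CPM at 1 dpi (log2FC -6.37 ± 0.68 (SE), adjusted p = 3.6e-06). Ly6c2, the Ly6C antigen of inflammatory monocytes, had 43.3, 16.4 and 39.5 CPM at 4 dpi, against 55.2, 35.7 and 74.5 CPM at 1 dpi and was not called (log2FC -0.74 ± 0.64 (SE), adjusted p = 0.4).

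The genes often called alternative-activation markers were mostly lower at 4 dpi. Of 19, 10 were downregulated and 1 upregulated at 4 dpi (median log2FC -1.50). Arg1, which turns arginine into ornithine, had 49.4, 3.82 and 4.83 CPM at 4 dpi, against 2094, 1308 and 1421 CPM at 1 dpi (log2FC -6.36 ± 0.79 (SE), adjusted p = 1.5e-05). Chil3 (Ym1), a chitinase-like secreted protein, had 69.5, 53.1 and 40.7 CPM at 4 dpi, against 2364, 1766 and 1386 CPM at 1 dpi (log2FC -5.08 ± 0.57 (SE), adjusted p = 5.9e-06). Mrc1, the mannose receptor CD206, had 325, 265 and 209 CPM at 4 dpi, against 1701, 1069 and 748 CPM at 1 dpi (log2FC -2.14 ± 0.35 (SE), adjusted p = 0.00019). In all 3 genes every 4 dpi library was below every 1 dpi library, which the rule for the largest falls required of Arg1 and Chil3. The member upregulated was Fcrls (log2FC 2.83 ± 0.24 (SE), adjusted p = 5.2e-07). Genes of tissue-resident macrophages were divided, with 6 of 17 upregulated and 4 downregulated. Gas6, the bridge between dead cells and the TAM receptors, had 83.9, 123 and 86.8 CPM at 4 dpi, against 14.4, 15.1 and 9.64 CPM at 1 dpi (log2FC 2.91 ± 0.26 (SE), adjusted p = 6.9e-07). Siglec1 had 352, 269 and 466 CPM at 4 dpi, against 38.5, 55 and 87.5 CPM at 1 dpi (log2FC 2.58 ± 0.27 (SE), adjusted p = 3.4e-06), and Folr2 was higher (log2FC 1.85 ± 0.24 (SE), adjusted p = 2.1e-05), whereas Cd163, the haptoglobin-hemoglobin receptor, was lower (log2FC -2.69 ± 0.54 (SE), adjusted p = 0.0011).

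Repair growth factors were divided, with 8 of 28 upregulated (28.6%, beside 14.7% of all genes) and 7 downregulated (25%, beside 8.48%). Igf1, which makes muscle progenitors grow and fuse, had 84.6, 212 and 156 CPM at 4 dpi, against 8.49, 8.95 and 12.6 CPM at 1 dpi (log2FC 3.91 ± 0.33 (SE), adjusted p = 4.5e-07). Gdf15, a TGF-beta family factor secreted by macrophages of regenerating muscle, had 30.9, 37.2 and 40.3 CPM at 4 dpi, against 2.99, 5.75 and 10.4 CPM at 1 dpi (log2FC 2.47 ± 0.32 (SE), adjusted p = 2.4e-05). Both were non-overlapping. Vegfb (log2FC 2.49 ± 0.40 (SE), adjusted p = 0.00015) and Grn (log2FC 1.43 ± 0.24 (SE), adjusted p = 0.00023), progranulin, were also upregulated. Vegfa, the vessel growth factor that hypoxia induces, had 6.5, 4.62 and 10.5 CPM at 4 dpi, against 61.3, 54.1 and 57.4 CPM at 1 dpi (log2FC -2.999 ± 0.42 (SE), adjusted p = 4.5e-05). The EGF-family ligands Areg, with 2.63, 0.843 and 0.263 CPM at 4 dpi, against 114, 34.8 and 29.1 CPM at 1 dpi (log2FC -5.49 ± 0.64 (SE), adjusted p = 8e-06), and Hbegf (log2FC -2.33 ± 0.32 (SE), adjusted p = 3.5e-05) and the activin subunit Inhba (log2FC -4.83 ± 0.44 (SE), adjusted p = 9.2e-07) were downregulated. Tgfb1 (log2FC 0.28 ± 0.22 (SE), adjusted p = 0.36), Gdf3 (log2FC 0.22 ± 0.37 (SE), adjusted p = 0.68) and Spp1 (log2FC 0.55 ± 0.56 (SE), adjusted p = 0.47) were not called.

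**Figure D2:**
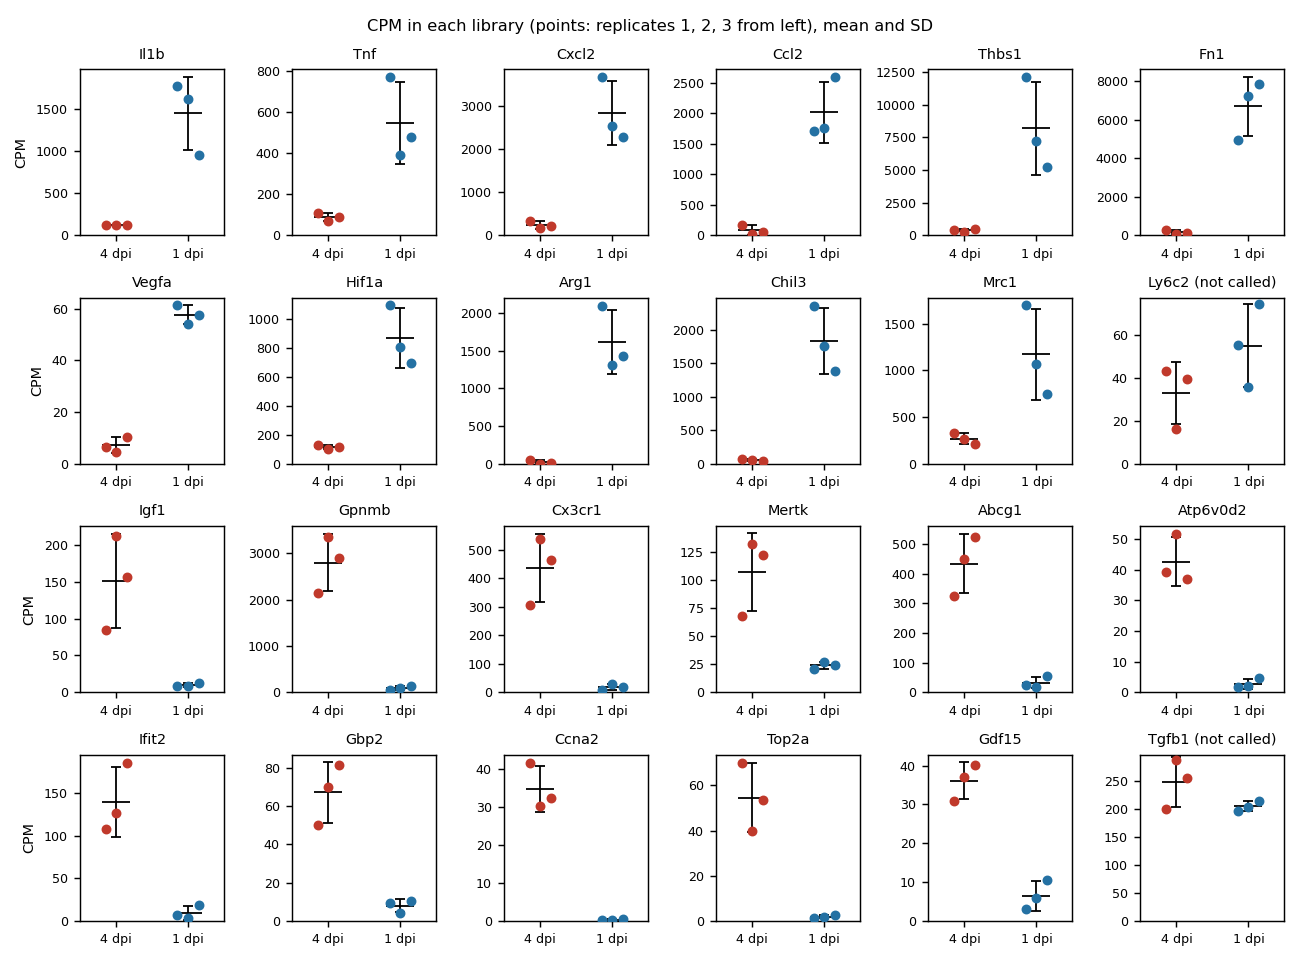
CPM of 24 genes in each of the 3 libraries at 4 dpi (left) and the 3 at 1 dpi (right), with the mean and SD of each day. Il1b, Cxcl2, Vegfa and Arg1 lie lower at 4 dpi, Igf1, Gpnmb, Cx3cr1 and Ccna2 lie higher, and Ly6c2 and Tgfb1 were not called.

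Of 30 efferocytosis and scavenger receptors, 10 were upregulated (33.3%, beside 14.7% of all genes) and 4 downregulated (13.3%, beside 8.48%). Axl, a TAM receptor for Gas6, had 72.8, 154 and 164 CPM at 4 dpi, against 13.4, 14.9 and 27.8 CPM at 1 dpi (log2FC 2.79 ± 0.31 (SE), adjusted p = 5.6e-06), and Mertk, another, had 67.7, 131 and 122 CPM at 4 dpi, against 20.3, 27 and 24.4 CPM at 1 dpi (log2FC 2.16 ± 0.25 (SE), adjusted p = 7.8e-06). Trem1, an amplifier of inflammatory signals, fell (log2FC -5.71 ± 0.60 (SE), adjusted p = 3.2e-06), as did the scavenger receptor Msr1 (log2FC -2.10 ± 0.29 (SE), adjusted p = 4.3e-05). Of 20 lipid-associated macrophage genes, 7 were upregulated and 1, Plin2, downregulated, and the median log2FC was 0.83. Gpnmb had 2140.5, 3364 and 2899.8 CPM at 4 dpi, against 43.1, 85.1 and 137 CPM at 1 dpi (log2FC 4.98 ± 0.57 (SE), adjusted p = 7.1e-06). Trem2 had 165, 255 and 196 CPM at 4 dpi, against 35.8, 56.6 and 49.9 CPM at 1 dpi (log2FC 2.11 ± 0.31 (SE), adjusted p = 6.4e-05), and Apoe was higher (log2FC 2.17 ± 0.39 (SE), adjusted p = 0.00047). Plin2, a lipid-droplet coat protein, lost its call without 1 dpi replicate 1. Of 19 genes of cholesterol efflux and fatty acid handling, 5 were upregulated and 2, Plin2 and Hilpda, downregulated, and those downregulated numbered 4 without 4 dpi replicate 1 and 1 without 1 dpi replicate 1. Abcg1, a sterol exporter, had 326, 450.1 and 524 CPM at 4 dpi, against 24, 19.1 and 54.1 CPM at 1 dpi (log2FC 3.74 ± 0.41 (SE), adjusted p = 4.6e-06), and Abca1, which passes cholesterol to apolipoproteins, was higher (log2FC 2.22 ± 0.35 (SE), adjusted p = 0.00014).

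Of 54 lysosomal genes, 16 were upregulated and 0 downregulated (median log2FC 0.47). Atp6v0d2, a proton-pump subunit, had 39.3, 51.6 and 37 CPM at 4 dpi, against 1.73, 1.97 and 4.57 CPM at 1 dpi (log2FC 3.92 ± 0.48 (SE), adjusted p = 1.3e-05). Sterol synthesis had 13 of 24 downregulated and 2 upregulated (median log2FC -1.27), and those upregulated numbered 1 without 4 dpi replicate 2. Cyp51, a sterol demethylase, had 23.1, 10.2 and 9.04 CPM at 4 dpi, against 96.5, 92.2 and 68.6 CPM at 1 dpi (log2FC -2.60 ± 0.32 (SE), adjusted p = 1.5e-05), and Srebf2, the factor that activates these genes, was lower (log2FC -2.30 ± 0.31 (SE), adjusted p = 3e-05). In all 13 the 4 dpi library closest to 1 dpi was replicate 1.

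Antigen-presentation genes were called in part, beside 14.7% of all genes called higher. Class I and immunoproteasome genes had 6 of 22 upregulated (27.3%) and 0 downregulated (median log2FC 0.64), and 3 were upregulated when 4 dpi replicate 3 was left out. Psmb9, an immunoproteasome catalytic subunit, had 23.3, 23.7 and 23.8 CPM at 4 dpi, against 8.02, 7.39 and 8.77 CPM at 1 dpi (log2FC 1.55 ± 0.20 (SE), adjusted p = 2.5e-05), and B2m was higher (log2FC 1.03 ± 0.22 (SE), adjusted p = 0.002), but B2m lost its call without 4 dpi replicate 2 (log2FC 0.997), 4 dpi replicate 3 (0.982) or 1 dpi replicate 2 (0.986). Class II genes had 6 of 17 upregulated (35.3%) and 2 downregulated, the upregulated 3 without 4 dpi replicate 2 and the downregulated 1 without 4 dpi replicate 1. Ciita, the class II master activator, had 8.08, 36.3 and 24.7 CPM at 4 dpi, against 3.14, 2.5 and 1.29 CPM at 1 dpi (log2FC 3.34 ± 0.48 (SE), adjusted p = 5.3e-05). The costimulatory gene Cd86 was lower (log2FC -1.22 ± 0.25 (SE), adjusted p = 0.0014; log2FC -0.99 and not called without 4 dpi replicate 1), as was Cd80 (log2FC -1.80 ± 0.27 (SE), adjusted p = 9.2e-05). B cells also carry class II, and their markers summed to 70.1 to 202 CPM at 4 dpi and 8.49 to 18.1 CPM at 1 dpi, and their part was not tested. Complement genes had 4 of 20 upregulated (20%, beside 14.7% of all genes) and 6 downregulated (30%, beside 8.48%). The 3 chains of C1q, which recognises immune complexes and apoptotic cells, were upregulated, and C1qa had 620.1, 1148 and 875 CPM at 4 dpi, against 218, 205 and 173 CPM at 1 dpi (log2FC 2.15 ± 0.25 (SE), adjusted p = 6.9e-06), while C3 was lower (log2FC -2.92 ± 0.27 (SE), adjusted p = 1.1e-06).

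Interferon-stimulated genes were upregulated in number, and the GTPases that defend against intracellular pathogens almost throughout. Of 17 guanylate-binding proteins and immunity-related GTPases, 16 were upregulated and 0 downregulated (median log2FC 2.56). Gbp2 had 50.1, 70.0 and 81.3 CPM at 4 dpi, against 9.35, 3.94 and 10.5 CPM at 1 dpi (log2FC 3.09 ± 0.33 (SE), adjusted p = 3.6e-06). Iigp1 had 11, 19.7 and 17.4 CPM at 4 dpi, against 0, 0.328 and 0.461 CPM at 1 dpi (log2FC 5.73 ± 0.50 (SE), adjusted p = 6.3e-07), and Gbp8, with no count at 1 dpi, was at least 42-fold higher. Of 57 type I interferon-stimulated genes, 25 were upregulated and 0 downregulated (median log2FC 0.92), with 2 downregulated when either 4 dpi replicate 1 or 3 was left out and 1 when 1 dpi replicate 2 was. Ifit2 had 107, 126 and 186 CPM at 4 dpi, against 6.92, 3.12 and 18.6 CPM at 1 dpi (log2FC 3.86 ± 0.53 (SE), adjusted p = 3.6e-05), Ifi44 had 11.2, 9.32 and 18.5 CPM at 4 dpi, against 0, 0 and 0.369 CPM at 1 dpi (log2FC 6.54 ± 0.70 (SE), adjusted p = 3.6e-06) and Lgals3bp had 514, 490.1 and 744 CPM at 4 dpi, against 95.2, 82 and 142 CPM at 1 dpi (log2FC 2.45 ± 0.26 (SE), adjusted p = 3.3e-06), while Ifitm3 was not called (log2FC -0.94 ± 0.25 (SE), adjusted p = 0.0081) and was called lower without 4 dpi replicate 1 (log2FC -1.16) or 3 (-1.002). Irf7 (log2FC 1.89 ± 0.37 (SE), adjusted p = 0.00091) and Irf8 (log2FC 1.51 ± 0.24 (SE), adjusted p = 0.00013), factors of this pathway, were upregulated. On chromosome 3 the 5 neighbours Gbp5, Gbp7, Gbp3, Gbp2b and Gbp2 were all upregulated, and on chromosome 5 Abcg3, Gbp8, Gbp9, Gbp4 and Gbp6. Ifit3 and Ifit3b are near-identical copies, as are members of the Gbp family, so how their reads divide is uncertain. The windows of Ifit3 and Gbp3 are printed because they hold the interferon-stimulated response element, written TTTCNNTTTC and searched on both strands. Capitals mark the matches.
Ifit3 (chr19:34583279-34583578, plus strand): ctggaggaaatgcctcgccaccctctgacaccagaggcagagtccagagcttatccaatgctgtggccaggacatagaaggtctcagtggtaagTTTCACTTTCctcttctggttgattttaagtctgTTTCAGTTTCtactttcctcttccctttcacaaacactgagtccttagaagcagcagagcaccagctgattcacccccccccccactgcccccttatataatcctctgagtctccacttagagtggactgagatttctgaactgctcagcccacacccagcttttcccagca
Gbp3 (chr3:142559794-142560093, plus strand): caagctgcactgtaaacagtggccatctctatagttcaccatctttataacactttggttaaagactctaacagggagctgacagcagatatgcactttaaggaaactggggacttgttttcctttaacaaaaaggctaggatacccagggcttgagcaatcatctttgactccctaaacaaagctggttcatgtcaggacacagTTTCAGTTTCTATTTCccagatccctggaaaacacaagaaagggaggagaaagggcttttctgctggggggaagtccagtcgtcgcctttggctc
The element stood in 4.03% of all 10035 genes with a window, in 10 of 11 upregulated GTPases (90.9%), in 10 of 21 upregulated interferon-stimulated genes (47.6%) and in 15 of 23 of that list that were not called (65.2%).

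Glycolysis was lower, with 11 of 25 downregulated and 2 upregulated (median log2FC -0.89), and those downregulated numbered 6 when 4 dpi replicate 2 was left out. Slc2a1, the glucose transporter GLUT1, had 36.5, 11.5 and 9.13 CPM at 4 dpi, against 165, 91.1 and 131 CPM at 1 dpi (log2FC -2.75 ± 0.39 (SE), adjusted p = 5.6e-05). Slc16a3, which exports lactate, had 110.1, 27.6 and 26.7 CPM at 4 dpi, against 639, 314 and 377 CPM at 1 dpi (log2FC -3.01 ± 0.45 (SE), adjusted p = 7.4e-05). Ldha, which makes lactate, had 751, 317 and 344 CPM at 4 dpi, against 1141, 904 and 1014 CPM at 1 dpi (log2FC -1.12 ± 0.31 (SE), adjusted p = 0.0099), and Ldhb, which favours its use, had 6.96, 19.7 and 15.2 CPM at 4 dpi, against 2.83, 2.63 and 2.49 CPM at 1 dpi (log2FC 2.40 ± 0.47 (SE), adjusted p = 0.00083), the opposite direction. Ldha lost its call without 4 dpi replicate 2 (log2FC -0.89), 4 dpi replicate 3 (-0.93) or 1 dpi replicate 1 (-0.9975). Hypoxia-response genes had 9 of 20 downregulated and 2 upregulated (median log2FC -0.99), with Hif1a at 129.9, 101 and 115 CPM at 4 dpi, against 1097, 807 and 698 CPM at 1 dpi (log2FC -2.91 ± 0.22 (SE), adjusted p = 1.5e-07). Odc1, the first step to polyamines, fell (log2FC -2.02 ± 0.23 (SE), adjusted p = 5.8e-06) in a list with 7 of 17 downregulated and 2 upregulated. Nuclear genes of oxidative phosphorylation had 0 of 72 upregulated and 1 downregulated, which was 0 without 4 dpi replicate 2. Of 11 genes that the mitochondrial genome encodes for the respiratory chain and ATP synthase, 0 were upregulated and 5 downregulated, among them mt-Nd2 (log2FC -1.26 ± 0.35 (SE), adjusted p = 0.011) and mt-Cytb (log2FC -1.14 ± 0.34 (SE), adjusted p = 0.016). Those 5 became 1 without 4 dpi replicate 1, 2 without 1 dpi replicate 2, and 3 when 4 dpi replicate 3 or 1 dpi replicate 1 or 3 was left out. The citrate cycle had 2 of 28 upregulated and 1 downregulated, which was 3 without 4 dpi replicate 1.

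Of 68 ribosome-biogenesis genes, 35 were downregulated and 0 upregulated, with a median log2FC of -1.03. Heatr1 had 16.7, 10.6 and 13.5 CPM at 4 dpi, against 49.4, 55.2 and 53.6 CPM at 1 dpi (log2FC -1.95 ± 0.20 (SE), adjusted p = 2.1e-06). Polr1a, the core subunit of the polymerase that transcribes ribosomal RNA, had 14, 9.41 and 9.75 CPM at 4 dpi, against 30.8, 50.7 and 44.2 CPM at 1 dpi (log2FC -1.92 ± 0.24 (SE), adjusted p = 1.3e-05). Ncl (log2FC -0.86 ± 0.24 (SE), adjusted p = 0.011) and Npm1 (log2FC -0.06 ± 0.22 (SE), adjusted p = 0.87), abundant nucleolar proteins, were not called, though Ncl was without 4 dpi replicate 1 (log2FC -1.14). In all 35 genes 4 dpi replicate 1 was the closest to 1 dpi. Of 79 cytosolic ribosomal proteins 1 was upregulated, and none without 4 dpi replicate 3 or 1 dpi replicates 2 or 3, and the median log2FC was -0.12. The unfolded protein and ATF4 list had 9 of 29 downregulated and 1 upregulated, with Slc7a11, the cystine importer, at 7.56, 5.24 and 7.68 CPM at 4 dpi, against 106, 56 and 82.8 CPM at 1 dpi (log2FC -3.58 ± 0.25 (SE), adjusted p = 1.2e-07).

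Cell-division genes were higher at 4 dpi. Of 58 mitosis genes, 55 were upregulated and 0 downregulated, with a median log2FC of 4.68. Ccna2, cyclin A2, had 41.7, 30.2 and 32.3 CPM at 4 dpi, against 0.314, 0.164 and 0.415 CPM at 1 dpi (log2FC 6.87 ± 0.52 (SE), adjusted p = 1.5e-07). Top2a, which untangles sister chromatids, had 70.2, 39.8 and 53.6 CPM at 4 dpi, against 1.1, 1.85 and 2.49 CPM at 1 dpi (log2FC 4.87 ± 0.43 (SE), adjusted p = 6.8e-07). Plk1, a mitotic kinase, had 19, 14.7 and 15.3 CPM at 4 dpi, against 0, 0 and 0 CPM at 1 dpi, which is at least 327-fold higher, and Nuf2, a kinetochore protein, was at least 194-fold higher. The library closest to 1 dpi was replicate 1 in none of the 55 and replicate 2 in 43. Of 44 DNA-replication genes, 34 were upregulated and 0 downregulated (median log2FC 1.89), with Rrm2, which makes deoxynucleotides, at 34.8, 12.6 and 19.1 CPM at 4 dpi, against 0.157, 0.575 and 0.461 CPM at 1 dpi (log2FC 5.67 ± 0.70 (SE), adjusted p = 1.4e-05). Pcna was not called (log2FC 0.08 ± 0.25 (SE), adjusted p = 0.83). The windows of Plk1, Ccnb2 and Cdc20 are shown because they hold the cell-cycle homology element (CHR) TTTGAA, searched on both strands and in capitals.
Plk1 (chr7:122159185-122159484, plus strand): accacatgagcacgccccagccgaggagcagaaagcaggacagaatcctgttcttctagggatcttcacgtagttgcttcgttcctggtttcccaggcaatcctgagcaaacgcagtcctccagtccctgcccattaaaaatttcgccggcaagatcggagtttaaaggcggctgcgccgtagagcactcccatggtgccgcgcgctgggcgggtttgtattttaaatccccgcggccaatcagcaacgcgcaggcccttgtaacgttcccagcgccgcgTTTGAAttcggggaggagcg
Ccnb2 (chr9:70421505-70421804, minus strand): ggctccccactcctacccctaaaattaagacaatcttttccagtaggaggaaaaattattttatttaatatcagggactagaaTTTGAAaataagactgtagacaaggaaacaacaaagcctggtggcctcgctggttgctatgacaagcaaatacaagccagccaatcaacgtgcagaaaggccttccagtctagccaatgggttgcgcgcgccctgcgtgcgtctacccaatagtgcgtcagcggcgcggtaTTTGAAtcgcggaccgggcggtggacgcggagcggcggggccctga
Cdc20 (chr4:118437294-118437593, minus strand): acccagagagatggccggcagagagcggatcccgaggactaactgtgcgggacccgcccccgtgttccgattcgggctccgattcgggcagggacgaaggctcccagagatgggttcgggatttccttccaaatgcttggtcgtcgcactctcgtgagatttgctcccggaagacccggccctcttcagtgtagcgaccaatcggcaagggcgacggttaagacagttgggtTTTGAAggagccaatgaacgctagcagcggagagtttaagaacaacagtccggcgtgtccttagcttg
CHR letters stood in 14.7% of all genes with a window, in 34 of 45 upregulated mitosis genes (75.6%), in 5 of 27 upregulated replication genes (18.5%), and in 20.6% of all upregulated and 13.5% of downregulated genes. The CCAAT box, CCAAT, stood in 42.7% of all, 68.9% of the mitosis and 66.7% of the replication genes.

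**Figure D3:**
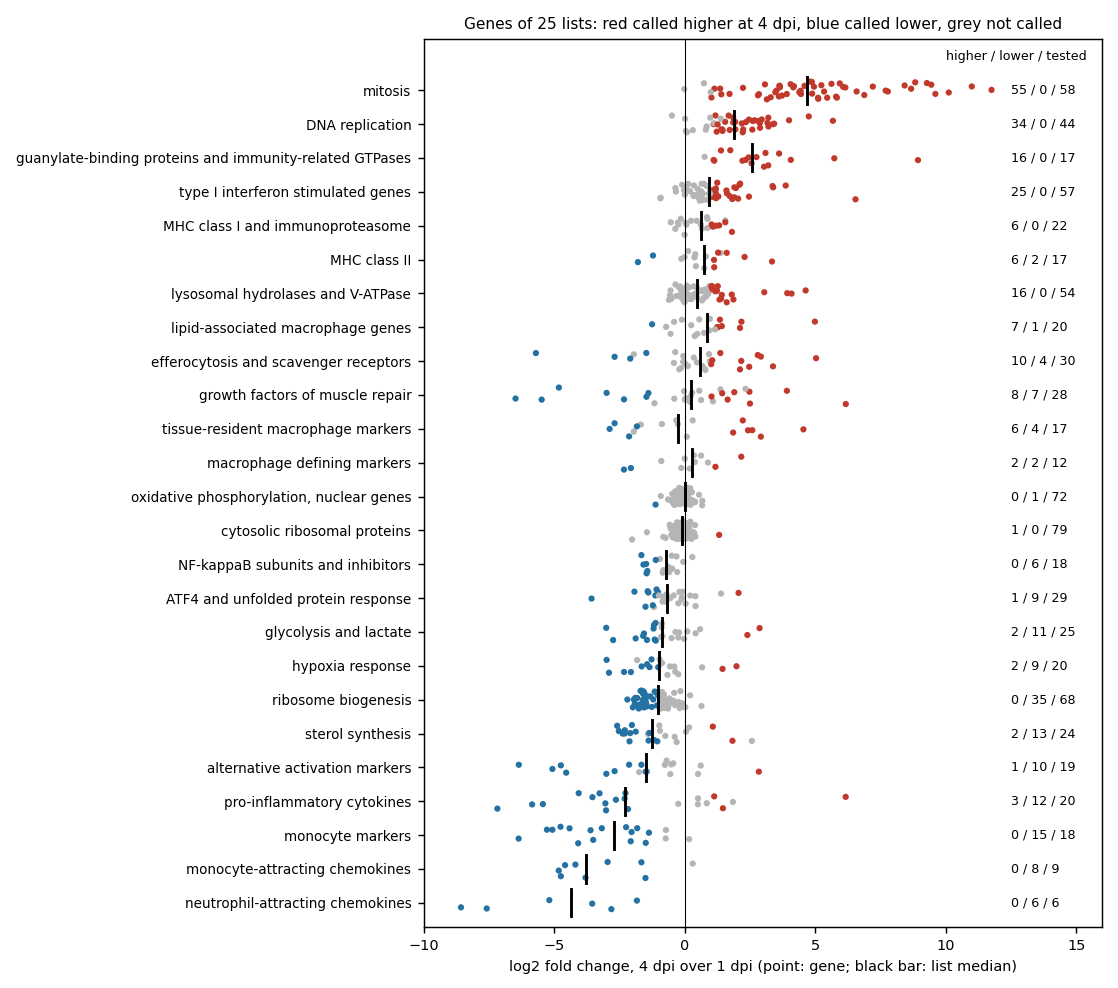
Log2FC (4 dpi minus 1 dpi) of every tested member of 25 gene lists, with each list's median as a bar and its numbers upregulated, downregulated and tested beside it. Mitosis and the GTPases lie right of 0, chemokines for neutrophils and monocytes left of it, and fitted values of genes with no count on a day depend on the prior count.

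Of 22 histone lactylation and acetylation enzymes, 3 were downregulated (13.6%, beside 8.48% of all genes) and 1 upregulated (4.55%, beside 14.7%). Hdac1 (log2FC -1.06 ± 0.21 (SE), adjusted p = 0.00088), Kat2a (log2FC -1.02 ± 0.22 (SE), adjusted p = 0.0016) and Hdac4 (log2FC -1.10 ± 0.29 (SE), adjusted p = 0.0078) were lower and Hdac8 higher (log2FC 1.38 ± 0.34 (SE), adjusted p = 0.0052), and those downregulated numbered 5 with 4 dpi replicate 1 left out, 0 with 4 dpi replicate 2 and 1 with replicate 3 of either day. Lineage factors had 3 of 21 upregulated (14.3%, beside 14.7% of all genes) and 5 downregulated (23.8%, beside 8.48%). Of these factors 9 were downregulated when 4 dpi replicate 2 was left out. Spic, which iron-recycling macrophages use, had 6.87, 8.04 and 9.97 CPM at 4 dpi, against 0.786, 1.76 and 2.95 CPM at 1 dpi (log2FC 2.13 ± 0.43 (SE), adjusted p = 0.0012). Of 15 nuclear receptors 4 were upregulated and 3 downregulated, and Nr1h3 (LXR alpha) was higher (log2FC 2.16 ± 0.43 (SE), adjusted p = 0.0011) and Rara lower (log2FC -1.04 ± 0.18 (SE), adjusted p = 0.00038). Rara lost its call without 4 dpi replicate 1 (log2FC -0.95), 1 dpi replicate 2 (-0.99) or 1 dpi replicate 3 (-0.97). Purinergic genes had 7 of 17 upregulated and 4 downregulated (median log2FC 0.95). P2ry12, an ADP receptor, had 43.9, 71.5 and 60.4 CPM at 4 dpi, against 8.49, 10.8 and 7.11 CPM at 1 dpi (log2FC 2.73 ± 0.25 (SE), adjusted p = 8.6e-07), and Adora2b, an adenosine receptor, had 31.9, 10.6 and 19.5 CPM at 4 dpi, against 185, 159 and 124 CPM at 1 dpi (log2FC -2.91 ± 0.30 (SE), adjusted p = 2.9e-06).

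Markers of some other cells also differed between the days, and the part of other cells in the values above was not tested. Fibroblast and progenitor markers had 10 of 16 upregulated and 1 downregulated, and Col1a1 had 65, 52.3 and 98 CPM at 4 dpi, against 1.73, 10.2 and 6.46 CPM at 1 dpi (log2FC 3.51 ± 0.45 (SE), adjusted p = 1.9e-05). The muscle list, 6 of 18 upregulated, summed to 24 to 36.6 CPM at 4 dpi and 10.8 to 24.7 CPM at 1 dpi, which overlap. Myog, a myoblast factor with no count at 1 dpi, was at least 30.0-fold higher. Neutrophil markers had 7 of 9 tested downregulated, with Camp at 0 throughout, and S100a9 had no count at 4 dpi and was at least 245-fold lower. S100a8 had 1.09, 0.444 and 0 CPM at 4 dpi, against 38.7, 16.8 and 10.6 CPM at 1 dpi (log2FC -5.31 ± 0.70 (SE), adjusted p = 4.6e-05). B cell markers were 2 of 5 upregulated, with Ighm at 64, 193 and 138 CPM at 4 dpi, against 3.61, 14.9 and 10.5 CPM at 1 dpi (log2FC 3.74 ± 0.43 (SE), adjusted p = 6.8e-06). Dendritic cell markers, 3 of 11 upregulated, summed to 24 to 29 CPM at 4 dpi and 18 to 24.1 CPM at 1 dpi, which overlap. The 3 upregulated became 0 when 4 dpi replicate 2 or 1 dpi replicate 3 was left out and 1 when 4 dpi replicate 3 was. Of T and NK and endothelial markers none was called, and 1 of each list became upregulated when a library was left out.

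**Figure D4:**
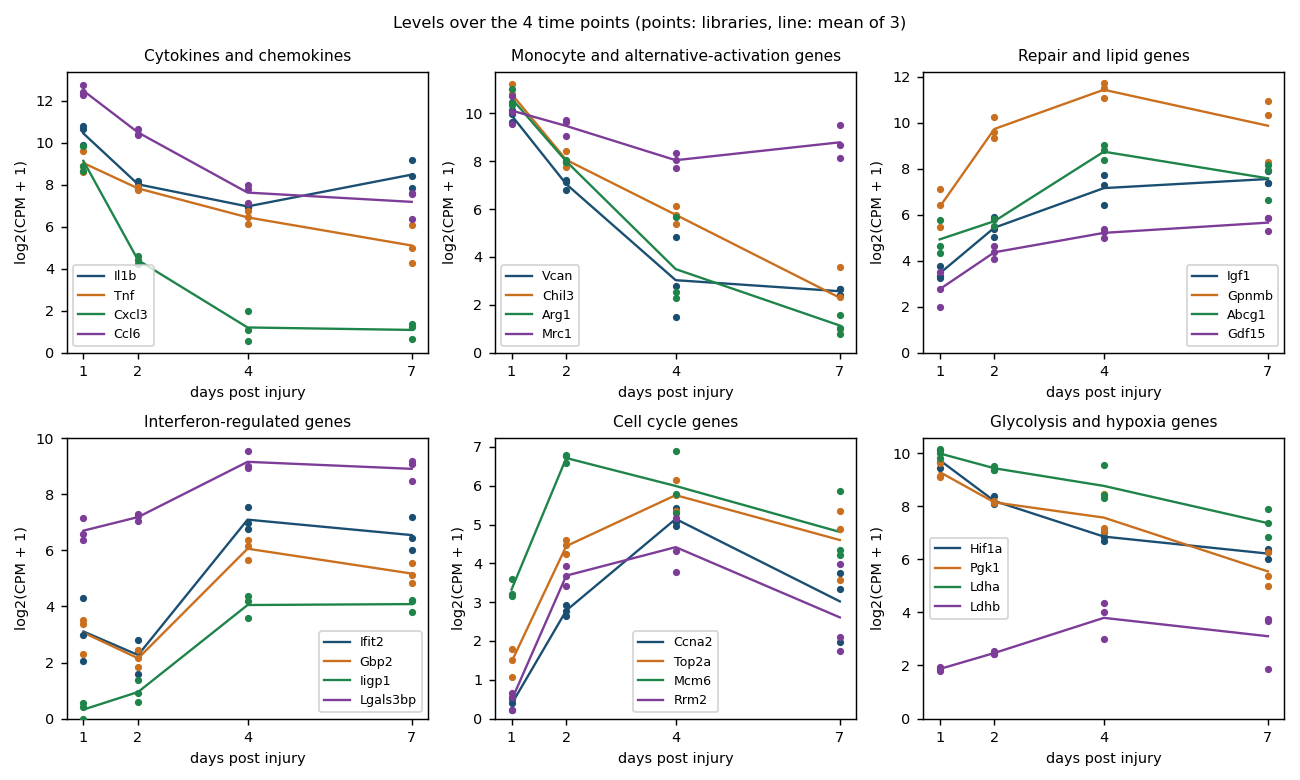
Mean log2(CPM + 1) of 24 genes in 6 panels at 1, 2, 4 and 7 dpi, with points for single libraries. Vcan and Arg1 fall at every step, Igf1 and Gdf15 rise at every step, and Ifit2 and Gbp2 are lowest at 2 dpi.

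Levels at 2 and 7 dpi place the change in time, and they share the 1 and 4 dpi libraries with the comparison, so they are given as levels with no test. With the mean log2 CPM of 1 dpi at 0% and of 4 dpi at 100%, upregulated genes stood at a median of 50.1% at 2 dpi and 89.9% at 7 dpi, and downregulated genes at 44.9% and 94.5%. Lists departed from this. The 34 upregulated replication genes stood at 102% at 2 dpi, 21 of them beyond 4 dpi, and at 50.2% at 7 dpi, and the 55 mitosis genes at 62.3% and 67.5%. Upregulated interferon-stimulated genes stood at -26.2% at 2 dpi, 21 of 25 being lower there than at 1 dpi, and the GTPases at -27.8%, 14 of 16. Downregulated ribosome-biogenesis genes stood at 11.6% at 2 dpi, so most of their fall came after it. Downregulated cytokines stood at 57.4% and monocyte-attracting chemokines at 41.9%. Downregulated glycolysis genes stood at 45.6% at 2 dpi and 180% at 7 dpi. Igf1 had 10.0 ± 2.25 CPM at 1 dpi, 43.4 ± 13.4 CPM at 2 dpi, 151 ± 63.9 CPM at 4 dpi and 189 ± 39 CPM at 7 dpi, and Arg1 had 1608 ± 425 CPM at 1 dpi, 254 ± 9.24 CPM at 2 dpi, 19.4 ± 26 CPM at 4 dpi and 1.25 ± 0.669 CPM at 7 dpi. Gbp2 had 7.94 ± 3.51 CPM at 1 dpi, 3.5 ± 0.903 CPM at 2 dpi, 67.1 ± 15.7 CPM at 4 dpi and 35.9 ± 9.47 CPM at 7 dpi.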

How the data were processed

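RNA-seq counts of 12 libraries, 3 at each of 1, 2, 4 and 7 dpi, were used, and 0 columns were left unmapped. Per the submitters' processing notes, Trim Galore 0.6.6, HISAT2 2.2.1 (on GRCm39) and Subread 2.0.1 were the tools with which the authors made the gene counts, and the deposited file holds those whole-number counts without normalisation. Whether both mates of a pair were counted, and whether multi-mapped reads were, was not given in the sources used here. A median of 83.1% of counts between 1 and 20 were even, so mates may have been counted singly.

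Genes with low counts were removed with filterByExpr, libraries were scaled by TMM, and all 12 libraries entered 1 edgeR 4.0.16 quasi-likelihood fit (R 4.3.3, limma 3.58.1) with day as the only term. The contrast was 4 dpi minus 1 dpi, with Benjamini-Hochberg adjusted p-values over all 14310 genes, and a call needed an adjusted p below 0.05 and a log2FC beyond 1. CPM use the TMM library sizes, and mean log2 CPM used for time courses a prior count of 2. SE is the absolute fitted log2FC divided by the square root of the quasi-likelihood F statistic. It is approximate, above all for genes with counts near 0 on a day. Values per group are 3 libraries. The fit was also run on counts simulated gene by gene from its own estimates of spread. Such a run cannot test how mates were counted or how far a single library departs from its group.

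Symbols came from the GRCm38 annotation, in which 3333 IDs had none, and gene order from the same annotation. Named genes were the 15 largest of each direction with a mean log2 CPM over 4, up to 4 members per direction and the 2 most abundant members of each list, and the genes of the study. Cdc20, Gbp8, Ifit2, Ifit3, Nuf2 and the mitochondrially encoded genes fell outside that rule and were chosen after their values were seen, as were genes named only in runs of neighbours or as called members of a list. The comparison and the 56 lists, which come from general knowledge and an earlier session, were chosen with earlier results of these data known. Promoter windows of chromosome 18 genes were left out. Alternatives tried were DESeq2 1.42.0 with its size factors, limma-voom, RLE scaling, other filters and thresholds, the 6 libraries alone, removal of the dominant gene, halved counts, a replicate block and fits without each single library. A few genes are not reported here.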

Additional observations from a re-analysis of the deposited data

How the results depend on the processing

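Against 2103 genes higher and 1213 lower, glmTreat at a 2-fold limit called 1000 higher and 433 lower, and dropping the fold limit called 2782 higher and 2226 lower. The share of calls that were higher was 63.4%, 69.8% under glmTreat and 55.6% without the limit. Leaving out each library in turn gave 1823 to 2146 higher and 979 to 1399 lower. DESeq2 gave 2227 and 1326, limma-voom 1926 and 1214, RLE scaling 2087 and 1235, no filter 2181 and 1265, a CPM filter 1967 and 1121, the 6 libraries alone 1895 and 1126, removal of the dominant gene 2165 and 1160, and halved counts 2052 and 1135, higher and lower in that order. No call was opposite in any of these. Of 270 named genes that were called, 195 were called under glmTreat. Across the 16 alternatives that leave the thresholds as they were, 235 of the 270 kept their call where tested, and of 5272 values for named genes 85 lost the call and 13 gained one.

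With the replicate number as a replicate block, 2073 were higher and 1191 lower. Deviations of same-numbered libraries of the 2 days correlated at 0.061, -0.011 and 0.079, so the numbers were not taken to pair them, and 4 dpi replicate 2 correlated best with 1 dpi replicate 3 while the others did so with their own number. Depth limits the low genes: a gene at 0 over the 3 libraries of a day may still lie at up to 0.0510 CPM at 1 dpi and 0.0383 CPM at 4 dpi. These limits hold for counting error only and take each count as a separate fragment. If mates were counted singly, the limits would be higher and the fold bounds lower.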
